A study of Homo sapiens with 3 samples.

Results

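The 10 genes of plasma membrane amino acid transporters SLC7A1, SLC7A5, SLC7A11, SLC3A2, SLC1A4, SLC1A5, SLC38A1, SLC38A2, SLC6A9 and SLC7A6 were followed in H446 cells exposed to the antitumor compound 3-bromoascochlorin. They were chosen by gene symbol, and all 10 were found among the 16793 symbols measured. The choice, like that of the gene lists set beside them, was made with earlier results of these data known. H446 is an established human small cell lung cancer line. RNA was sequenced after 48 h with vehicle, 5 µM 3-bromoascochlorin (BAS) or 10 µM BAS, in medium that held fetal bovine serum in all 3 groups. Each group had 1 library, which leaves every difference without a replicate check, a test or a p-value. The files name the treated libraries by codes other than the labelled doses, and each dose given here rests on the sample labels. Levels are in FPKM, sequenced fragments scaled to transcript length and library size, so that levels of different genes can be set side by side per length. How deeply each library was read is not known, so the counting error of the values is unknown too.

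Cells take up amino acids through carriers of the solute carrier (SLC) families, many of which exchange an inner amino acid for an outer one or use the inward sodium gradient. SLC3A2, the heavy chain of CD98, has no transport channel of its own: it brings light chains of the SLC7 family to the cell surface, where they carry large neutral amino acids or cystine. When amino acids run short or the endoplasmic reticulum or mitochondria are stressed, phosphorylation of the translation factor eIF2 favours synthesis of ATF4, a transcription factor whose known targets include several of these carriers. In many tumours SLC1A5 and SLC7A5 supply glutamine and leucine.

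The members had their largest differences in the CD98 heavy chain, its light chain SLC7A5, the small neutral amino acid carrier SLC1A4 and the glycine carrier SLC6A9. Each of these 4 genes was more than 2-fold higher at 10 µM BAS than with vehicle, and most of each difference was already present at 5 µM. SLC7A1, SLC1A5, SLC38A1 and SLC38A2 were 1.34-fold to 1.42-fold higher at 10 µM by plain FPKM ratio, and the light chain genes SLC7A6 and SLC7A11 were close to vehicle. In the vehicle, 5 µM and 10 µM libraries the 10 genes together summed to 345.94, 519.31 and 571.07 FPKM, which was 0.0709%, 0.102% and 0.116% of all FPKM in each library.

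Short stretches of promoter are shown for the members whose sequence around a transcript start holds TGATGNAA, the core of the composite element at which ATF4 binds with a C/EBP partner. The sequences are from RefSeq on build GRCh38.p14, in windows of 250 bases before to 50 bases after each annotated start. They give no coordinates in the build of the expression files. Of the members, 9 had at least 1 window, 15 in all, and SLC7A11 had none. The motif was searched on both strands, so it can also read TTNCATCA. Capitals mark the match and each stretch is written 5′ to 3′ in the direction of the gene.
SLC1A4, chr2:64989366-64989425, plus strand: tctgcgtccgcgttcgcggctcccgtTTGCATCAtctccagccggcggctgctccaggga
SLC1A5, chr19:46784878-46784937, minus strand: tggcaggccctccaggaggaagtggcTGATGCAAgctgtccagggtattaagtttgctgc
SLC3A2, chr11:62881710-62881748, plus strand: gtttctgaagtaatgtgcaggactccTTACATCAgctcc
SLC7A1, chr13:29595648-29595707, minus strand: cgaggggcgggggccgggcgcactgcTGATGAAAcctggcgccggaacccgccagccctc
SLC38A1, chr12:46266487-46266546, minus strand: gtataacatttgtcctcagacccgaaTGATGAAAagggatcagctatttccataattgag

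The first base of the match lies 7 bases before the start in SLC1A4, 97 before in SLC1A5, 37 after in SLC3A2, 7 after in SLC7A1 and 4 before in SLC38A1. In SLC1A4, SLC1A5, SLC3A2 and SLC38A1 only 1 of several annotated starts has it, and the expression files do not say which start was used. The motif was in the windows of 5 of the 9 members with any, and in 5 of their 15 windows. It was in 3.62% of all 35116 windows and, by gene, in 2.65% of the 9180 genes that were compared here and had a window. These 5 members differed widely in their response: SLC1A4 and SLC3A2 were past 2-fold at 10 µM, and SLC1A5, SLC7A1 and SLC38A1 were not. SLC7A5 and SLC6A9, which were past 2-fold, had no match in their windows. A match is a run of letters and no measurement of binding, and letters outside these windows were not read.

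A second motif, CACGTG, the E-box of MYC and its relatives, was found in windows of 2 members, SLC7A5 and SLC1A5, and by gene in 13.1% of the compared genes. TGACGTCA, the full cyclic AMP response element, was in none of the members' windows and in 4.03% of the compared genes. The SLC7A5 match, 130 bases before the start, is shown because SLC7A5 made the largest contribution to the levels among the light chains that differed.
SLC7A5, chr16:87869606-87869663, minus strand: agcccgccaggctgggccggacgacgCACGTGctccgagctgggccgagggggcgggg

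Differences were taken as log2(FPKM + 1), BAS minus vehicle, for the 11512 genes whose mean over all 3 libraries reached 1 FPKM, a filter that all 10 members passed. On this scale a gene is called 2-fold higher at a difference of at least 1, and 1.5-fold higher at 0.585 or more. The scale understates the differences of low genes, and every fold given as a ratio was computed from FPKM itself. Both comparisons with vehicle use the same vehicle library, so they are not independent. In bulk RNA, a change in every cell cannot be told apart from a change in the share of cells with high levels.

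SLC3A2 measured 55.21, 110.55 and 127.83 FPKM in the vehicle, 5 µM and 10 µM libraries. The difference was 0.99 at 5 µM and 1.20 at 10 µM, where it stood 55.34 and 72.62 FPKM above vehicle. SLC3A2 was thus just short of the 2-fold limit at 5 µM on the log2(FPKM + 1) scale. It ranked 66th of the 11512 genes by difference at 5 µM and 80th at 10 µM.

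SLC7A5 (LAT1), the light chain that exchanges glutamine for leucine and other large neutral amino acids, was at 38.31, 73.62 and 87.43 FPKM with vehicle, 5 µM and 10 µM. Its differences were 0.93 at 5 µM and 1.17 at 10 µM, for ratios of 1.92-fold and 2.28-fold. SLC7A5 kept close to a fixed proportion of its heavy chain: the ratio of SLC7A5 to SLC3A2 was 0.694 with vehicle, 0.666 at 5 µM and 0.684 at 10 µM.

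SLC7A6 (y+LAT2), the light chain that exchanges cationic for neutral amino acids, was at 7.68, 6.95 and 8.63 FPKM over the same libraries. SLC7A11 (xCT), the light chain that imports cystine in exchange for glutamate, was at 2.63, 3.01 and 2.53 FPKM. Neither gene followed the dose, and their differences at 10 µM were 0.15 for SLC7A6 and −0.04 for SLC7A11. The SLC7A11 difference at 10 µM was 0.14, on the other side of vehicle, with trends in transcript length and GC content removed, and at 5 µM it was 0.38 with them removed, in place of 0.14. The SLC7A6 difference at 5 µM was −0.03 with them removed, in place of −0.13. Relative to SLC3A2, SLC7A6 was at 0.068 at 10 µM and 0.139 with vehicle, and SLC7A11 at 0.020 at 10 µM and 0.048 with vehicle.

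The heavy chain also serves light chains outside the members. SLC7A8 (LAT2), a further carrier of neutral amino acids, was at 73.18, 78.38 and 86.10 FPKM, SLC7A7 at 0.72, 1.18 and 1.34 FPKM, and SLC7A10 at most 0.03 FPKM. Over these 6 light chain genes the sum was 122.52, 163.17 and 186.03 FPKM. SLC7A5 held 31.3%, 45.1% and 47.0% of it with vehicle, 5 µM and 10 µM, and SLC7A8 held 59.7%, 48.0% and 46.3%. The ratio of summed light chains to SLC3A2 was 2.22 with vehicle, 1.48 at 5 µM and 1.46 at 10 µM.

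**Figure D1:**
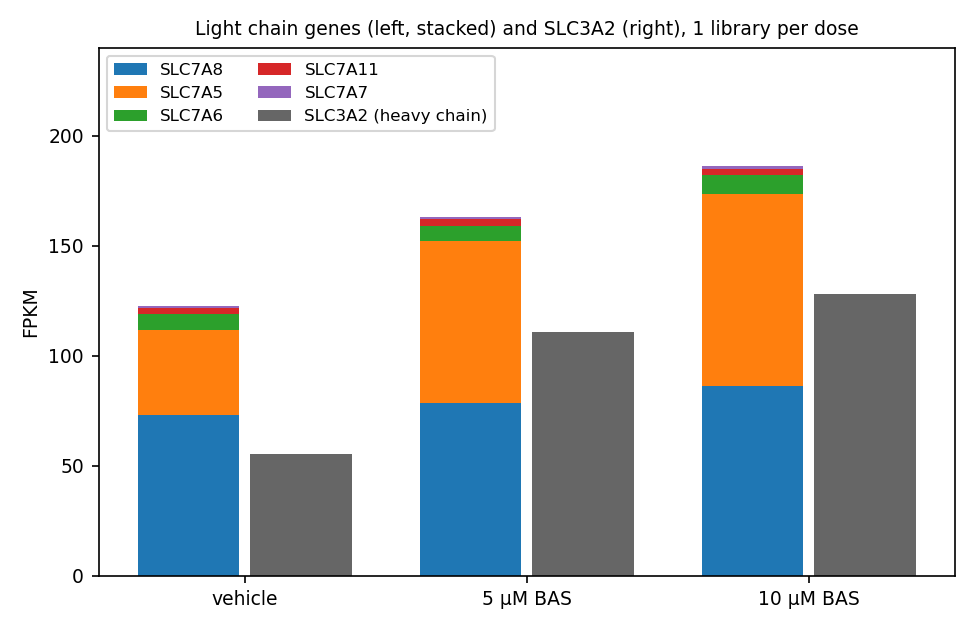
Stacked bars give the FPKM of the CD98 light chain genes and grey bars that of the heavy chain gene SLC3A2, with 1 library per dose and no error to show. SLC3A2 was at 55.21, 110.55 and 127.83 FPKM and SLC7A5 at 38.31, 73.62 and 87.43 FPKM with vehicle, 5 µM and 10 µM, while SLC7A8 stayed between 73.18 and 86.10 FPKM.

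SLC1A5 (ASCT2), a sodium-dependent exchanger of glutamine and other neutral amino acids, had the highest level of the members in every library. It measured 125.23, 183.44 and 172.38 FPKM in the vehicle, 5 µM and 10 µM libraries. Its difference was 0.55 at 5 µM and 0.46 at 10 µM, and it was 0.94 times as high at 10 µM as at 5 µM. Its share of the members' summed FPKM was 30.2% at 10 µM and 36.2% with vehicle.

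SLC1A4 (ASCT1), its close relative for alanine, serine and cysteine, was at 5.91, 11.65 and 15.23 FPKM with vehicle, 5 µM and 10 µM. The differences of 0.87 and 1.23 were ratios of 1.97-fold and 2.58-fold. SLC1A4 was the lesser of the pair throughout, but SLC1A5 was 11.3 times as high at 10 µM and 21.2 times as high with vehicle.

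SLC38A1 and SLC38A2 (SNAT1 and SNAT2) carry small neutral amino acids, glutamine included, into the cell with sodium. SLC38A2 was at 55.04, 63.10 and 74.05 FPKM with vehicle, 5 µM and 10 µM, and SLC38A1 at 36.33, 37.78 and 49.82 FPKM. The dose steps of the pair differed: SLC38A1 stood only 1.45 FPKM above vehicle at 5 µM and 13.49 FPKM above it at 10 µM, whereas SLC38A2 stood 8.06 and 19.01 FPKM above. With each library rescaled to a common total, the SLC38A1 difference at 5 µM was 0.00 in place of 0.06, and with length and GC trends removed it was 0.23. With those trends removed the SLC38A2 difference at 5 µM was 0.33 in place of 0.19. Neither gene reached 1.5-fold at 10 µM, with differences of 0.45 for SLC38A1 and 0.42 for SLC38A2.

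SLC7A1 (CAT1), which takes up arginine, lysine and ornithine, was at 15.84, 20.01 and 22.44 FPKM with vehicle, 5 µM and 10 µM, and its differences were 0.32 and 0.48. SLC6A9 (GLYT1), which takes up glycine with sodium and chloride, was at 3.76, 9.20 and 10.73 FPKM. SLC6A9 had the largest difference of the members at both doses, 1.10 at 5 µM and 1.30 at 10 µM, or ratios of 2.45-fold and 2.85-fold. It ranked 50th and 62nd of the 11512 genes.

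**Figure D2:**
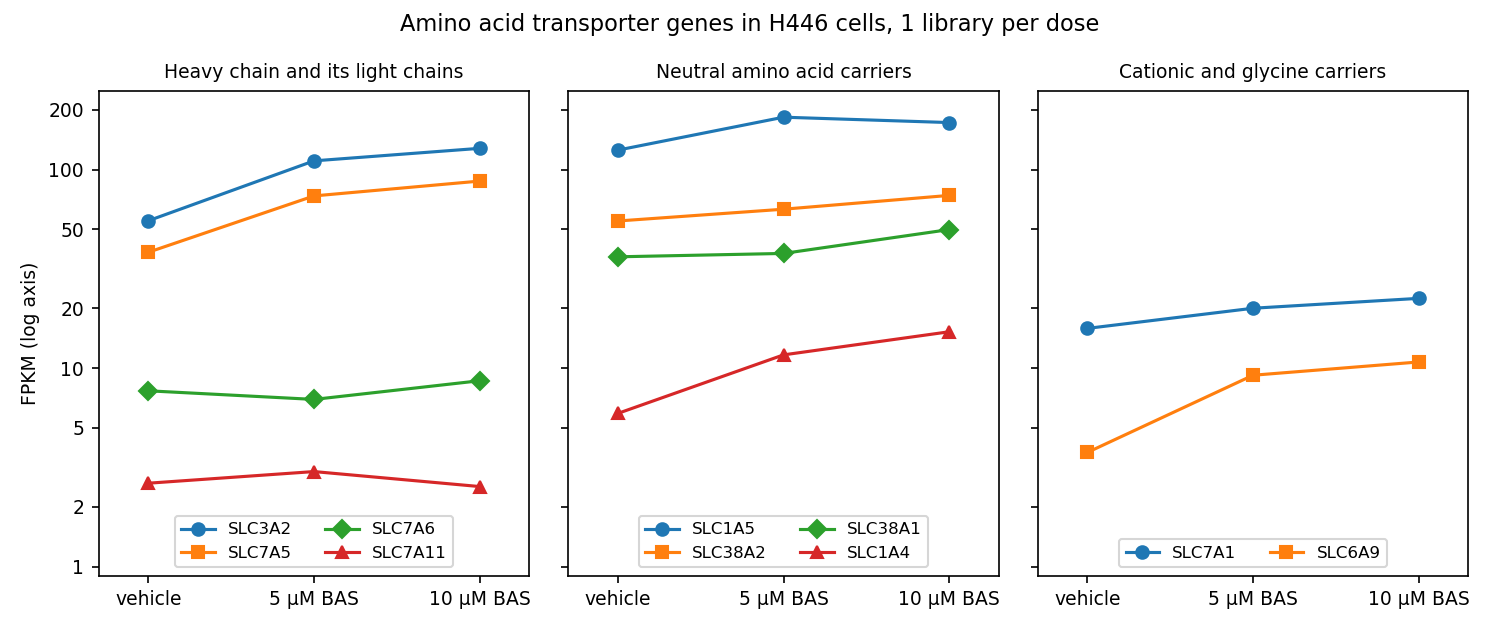
FPKM of each member on a log axis in the vehicle, 5 µM and 10 µM library, grouped by role, with 1 point per library and no error bars because there was 1 library per dose. SLC3A2, SLC7A5, SLC1A4 and SLC6A9 have their larger step between vehicle and 5 µM, SLC38A1 between 5 µM and 10 µM, and SLC7A6 and SLC7A11 stay within 6.95 to 8.63 and 2.53 to 3.01 FPKM.

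By level the members ran, with vehicle, in the order SLC1A5, SLC3A2, SLC38A2, SLC7A5, SLC38A1, SLC7A1, SLC7A6, SLC1A4, SLC6A9 and SLC7A11. SLC3A2 and SLC38A2, at 55.21 and 55.04 FPKM, and SLC7A5 and SLC38A1, at 38.31 and 36.33 FPKM, were near ties there. Without replicates, no 2 neighbours in this order can be said to differ. At 10 µM SLC7A5 stood above SLC38A2, and SLC1A4 and SLC6A9 stood above SLC7A6.

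At 5 µM, 1 of the 10 members was at least 2-fold higher, SLC6A9, and 0 were 2-fold lower, where 0.539% of all 11512 genes were called higher and 0.208% lower. At 1.5-fold 4 members were higher, SLC6A9, SLC3A2, SLC7A5 and SLC1A4, and 0 lower, where 3.01% of all genes were called higher and 1.6% lower. Above vehicle stood 9 of the 10, all but SLC7A6, and 53.2% of all genes. The median difference of the members was 0.43, and that of all genes 0.02. Because the members were chosen with earlier results known, contrasts with all genes, here and at 10 µM, are description and no independent support.

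At 10 µM, the same 4 genes, SLC6A9, SLC1A4, SLC3A2 and SLC7A5, passed the 2-fold limit upward and 0 members downward, where 1.31% of all genes were called higher and 0.643% lower. No further member was at least 1.5-fold higher, where 6.04% of all genes were, or 1.5-fold lower, where 3.44% were. Above vehicle stood 9 of the 10, all but SLC7A11, and 56.5% of all genes. The median difference was 0.47 over the members and 0.05 over all genes. These 4 genes lay within the highest 0.74% of differences, and SLC7A1, SLC1A5, SLC38A1 and SLC38A2 between 9.88% and 12.53% from the top. The members' summed FPKM was 225.13 FPKM higher at 10 µM than with vehicle, and of this SLC3A2 made up 32.3%, SLC7A5 21.8% and SLC1A5 20.9%.

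**Figure D3:**
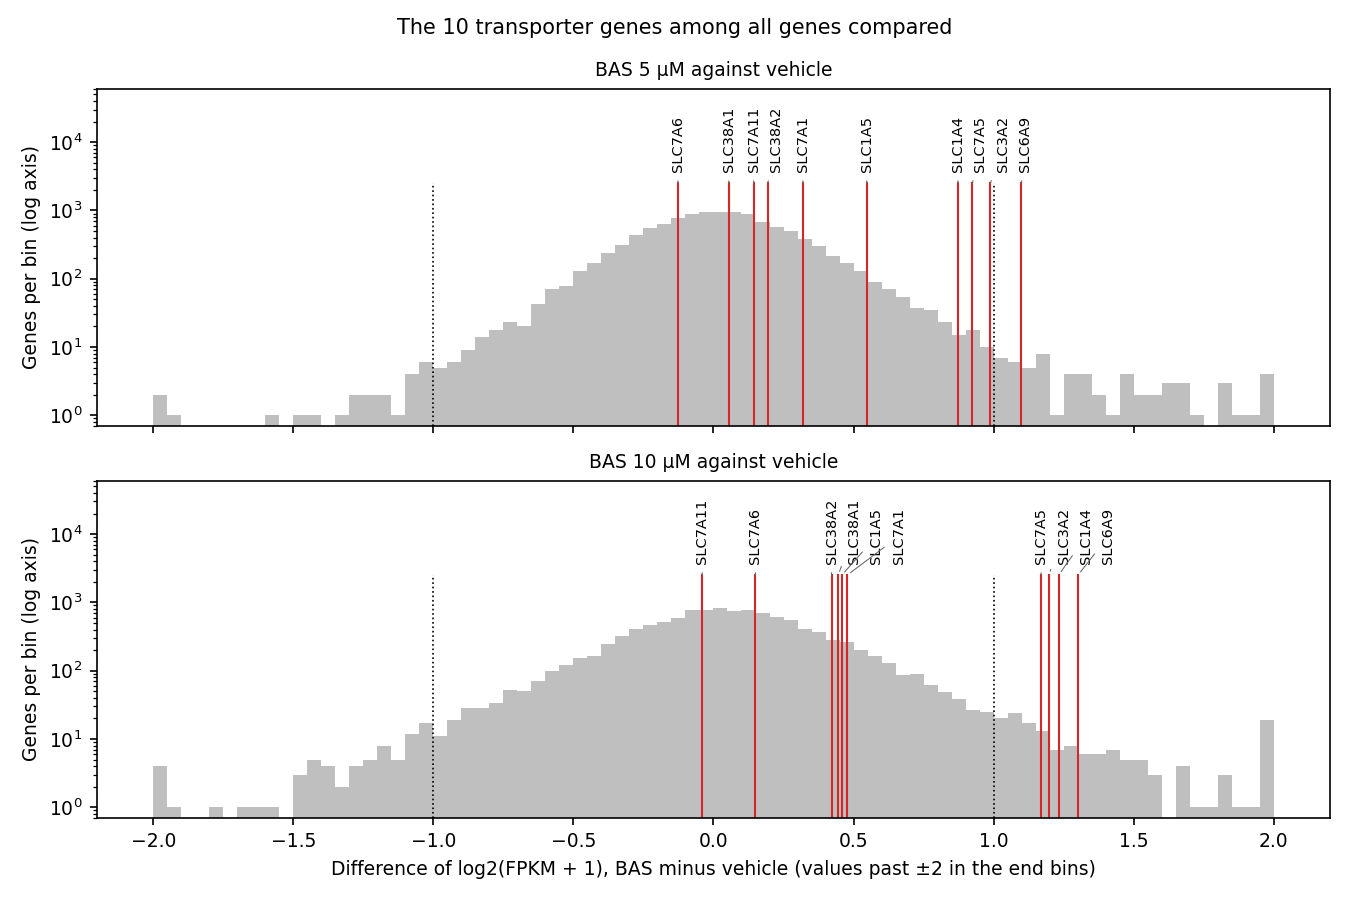
Grey bars count all 11512 genes by their difference of log2(FPKM + 1) at 5 µM (upper panel) and 10 µM (lower panel) against vehicle, on a log axis, and red lines mark the 10 members. At 10 µM SLC7A5, SLC3A2, SLC1A4 and SLC6A9 lie between 1.17 and 1.30, past the dotted 2-fold limit, 4 members lie between 0.42 and 0.48, and SLC7A6 and SLC7A11 lie near 0.

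Between the doses, 10 µM against 5 µM, 0 members were at least 2-fold higher or lower, where 0.0434% of all genes were called in each direction, and 0 at least 1.5-fold, where 0.434% were higher and 0.408% lower. The median difference was 0.22 over the members and 0.04 over all genes. SLC38A1 (0.39) and SLC1A4 (0.36) had the largest steps, and SLC1A5 (−0.09) and SLC7A11 (−0.18) were lower at 10 µM. For the 4 genes past 2-fold, between 70.8% of the 10 µM difference (SLC1A4) and 84.5% (SLC6A9) was present at 5 µM. In all, 7 of the 10 members stood in the order vehicle, 5 µM, 10 µM from low to high, as did 32.9% of all genes compared.

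Some members share sequence or exons with other genes, and the strand of the libraries is not given in the sources used here. By GENCODE 29, exons of SLC7A6 overlap SLC7A6OS on the other strand, and 57.1% of the 50-base sequences of its longest coding transcript also occur in other genes. SLC7A6OS was at 4.86, 4.39 and 4.08 FPKM with vehicle, 5 µM and 10 µM. Exons of SLC1A5 and SLC6A9 also overlap other genes. For SLC6A9 the gene is CCDC24, at 1.57, 3.04 and 2.78 FPKM, which like SLC6A9 stood above vehicle at both doses. The share of reads that the authors' counting gave to each gene of such a pair cannot be told apart, and its part in the SLC6A9, SLC1A5 and SLC7A6 values was not tested. SLC7A5 has 5.61% of its 50-base sequences in other genes, mostly the copy SLC7A5P2, and SLC7A11 9.29%, mostly its antisense gene. SLC1A5 has 25.8% in 1 other gene. In the longest coding transcripts of SLC3A2, SLC1A4, SLC7A1, SLC38A1, SLC38A2 and SLC6A9 no 50-base sequence was shared with another gene. Other transcripts of these members were not searched, whereas the exon overlaps cover every transcript.

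Among 31 other plasma membrane amino acid transporters, 25 were in the files and 12 passed the filter. On the log2(FPKM + 1) scale 0 of the 12 were at least 2-fold higher or lower at either dose, and the median differences were 0.11 at 5 µM and 0.20 at 10 µM. At 10 µM 1 gene was at least 1.5-fold higher, where 6.04% of all genes were. That gene was SLC6A6, the taurine carrier, at 0.47, 1.11 and 1.58 FPKM, which passed the filter only through the BAS libraries and whose plain FPKM ratios to vehicle were 2.36-fold and 3.36-fold. SLC43A1 (LAT3), a carrier of large neutral amino acids, was at 7.91, 11.85 and 11.04 FPKM, and SLC1A1, a glutamate carrier, at 1.90, 1.60 and 1.27 FPKM. SLC7A8 had the highest level of this list.

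In the lysosome membrane, the 7 of 9 measured amino acid carriers that passed the filter all stood above vehicle at 10 µM, by a median of 0.29, where 56.5% of all genes did, and 0 reached 1.5-fold. The largest difference was that of MFSD12, which imports cysteine into lysosomes, at 15.21, 16.55 and 20.59 FPKM. The arginine sensor SLC38A9 was at 6.84, 6.67 and 7.11 FPKM. Of 9 mitochondrial carriers past the filter, 1 was at least 1.5-fold lower at 10 µM, where 3.44% of all genes were. It was SLC25A12, the aspartate-glutamate exchanger, at 8.85, 6.32 and 4.96 FPKM. The list median was 0.12, and SFXN1, the mitochondrial serine carrier, was at 37.59, 33.20 and 27.99 FPKM.

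Of 30 genes past the filter that sense amino acids for the growth kinase complex mTORC1, 2 passed 1.5-fold upward at 10 µM and 1 downward. Of all genes, 6.04% passed upward and 3.44% downward, so these counts were near the shares of all genes. The median difference of the list was 0.01. SESN2, a leucine sensor that restrains the complex, was at 14.50, 30.23 and 28.12 FPKM. ITFG2, of the KICSTOR complex, was at 8.95, 14.40 and 14.79 FPKM. WDR59, of the GATOR2 complex, was at 11.42, 8.30 and 5.59 FPKM.

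Enzymes that use what the carriers bring in were higher in part. Of 9 genes of glutamine and asparagine use past the filter, 3 passed 1.5-fold upward at 10 µM and 0 downward, with a median of 0.23. Of all genes, 6.04% passed this limit upward and 3.44% downward. ASNS, which makes asparagine from glutamine, was 3.18-fold higher than with vehicle, PSAT1, which uses glutamate in serine synthesis, 1.84-fold, and GPT2, the mitochondrial alanine transaminase, 1.54-fold. GLUL, which makes glutamine, was at 133.44, 108.42 and 99.62 FPKM. Besides SLC7A11 itself, 4 of 8 genes of cysteine and glutathione supply passed 1.5-fold upward at 10 µM and 0 downward, with a median of 0.50. The shares of all genes were again 6.04% upward and 3.44% downward. CHAC1, which degrades glutathione, was at 7.15, 24.13 and 23.48 FPKM. CBS, which joins homocysteine to serine on the way to cysteine, measured 16.65, 32.14 and 33.26 FPKM, and CTH, the next enzyme of that route, was 1.58-fold higher at 10 µM than with vehicle. For GSS, glutathione synthetase, the ratio was 1.79-fold.

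Known regulators of these carriers were measured as RNA only. Of 14, 5 passed 2-fold upward at 10 µM and 0 downward, where 1.31% of all genes were called higher and 0.643% lower. The list median was 0.48. ATF4 was at 233.77, 353.69 and 331.17 FPKM with vehicle, 5 µM and 10 µM. It was highest at 5 µM, as were only SLC1A5 and SLC7A11 among the members. TRIB3 and DDIT3, a brake on ATF4 and its partner CHOP, were 5.04-fold and 4.26-fold higher at 10 µM, ATF3 3.08-fold, PPP1R15A, which reverses eIF2 phosphorylation, 2.79-fold, and CEBPB 2.16-fold. CEBPG was at 30.84, 42.80 and 43.00 FPKM. NFE2L2, an activator of SLC7A11 whose protein is controlled mainly by its breakdown, was at 40.31, 38.93 and 42.07 FPKM, and MYC at 35.07, 33.17 and 38.82 FPKM. Of 6 partners past the filter, 1 was at least 1.5-fold higher at 10 µM, where 6.04% of all genes were. It was CD44, which binds and stabilises xCT, at 8.55, 10.82 and 15.02 FPKM. The other 5 were under 1.5-fold, and the list median at 10 µM was 0.13.

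**Figure D4:**
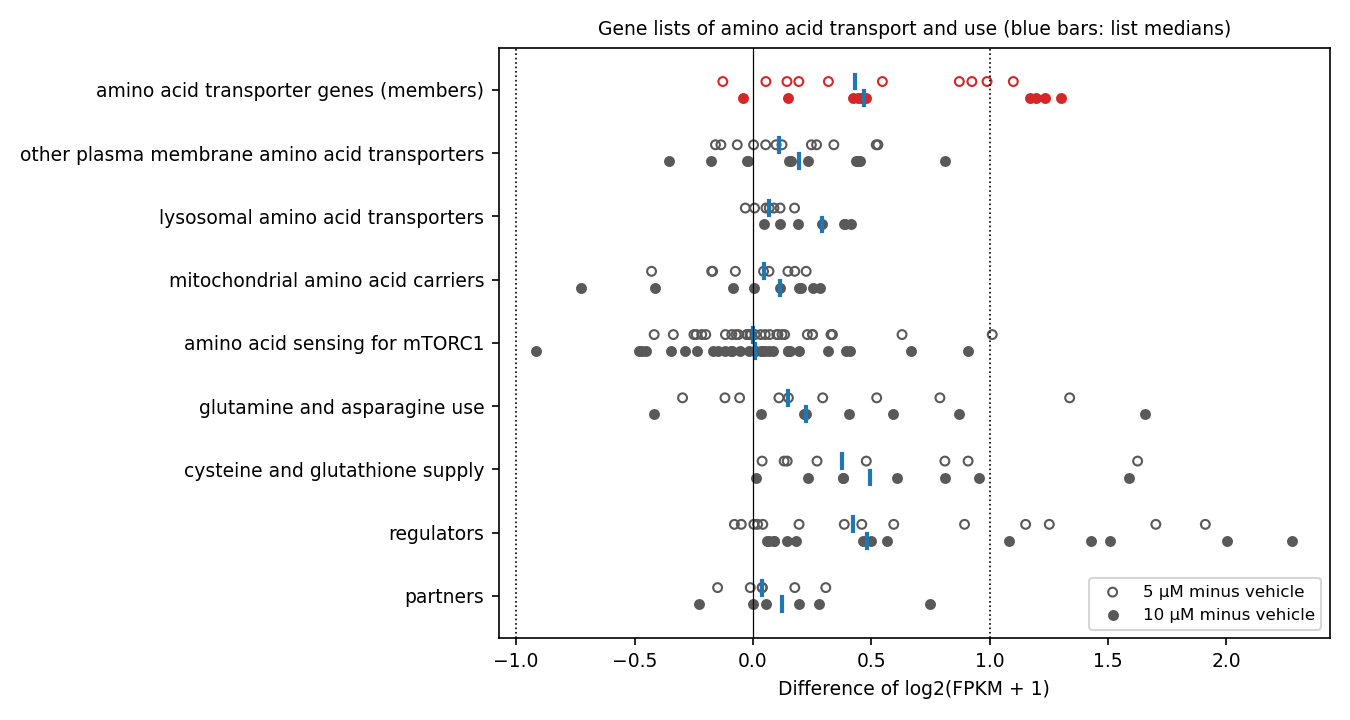
Each circle is a gene past the filter, placed by its difference of log2(FPKM + 1) at 5 µM (open) and 10 µM (filled) against vehicle, and blue bars are list medians. The members spread from −0.13 to 1.10 at 5 µM and from −0.04 to 1.30 at 10 µM, and the sensing list has a median of 0.00 at 5 µM and 0.01 at 10 µM.

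By distance in the pair of differences from vehicle, over the 3 libraries, the genes nearest to SLC6A9 were GADD45A, a growth arrest gene, CPA4, a carboxypeptidase gene, and AKNA. GADD45A was at 34.29, 73.31 and 88.63 FPKM. Those nearest to SLC7A11 were MMAB, ZNF571 and LYRM1. With 3 libraries many genes have alike patterns, and nearness carries no more than that.

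For the library as a whole, the values summed to between 487923 and 507342 FPKM. Of 12 measured markers of small cell lung cancer and its neuroendocrine state, 10 were at or above 1 FPKM in every library. Several moved with dose: with vehicle, 5 µM and 10 µM, UCHL1 was at 82.21, 131.19 and 176.51 FPKM and NCAM1 at 46.93, 60.14 and 65.84 FPKM, and CHGA was at 6.41 FPKM at 10 µM and 1.91 FPKM with vehicle. POU4F1 was at 101.29, 69.87 and 65.66 FPKM, and NEUROD1 at 104.96, 93.15 and 91.62 FPKM. POU2F3 and YAP1 were at most 0.07 FPKM. Of 14 measured markers of leukocytes, endothelium, fibroblasts, liver and red cells, 4 to 7 were at or above 1 FPKM in each library. CD68 was at 2.85, 6.05 and 7.34 FPKM and COL1A1 at 63.57, 85.84 and 98.52 FPKM, both ordered by dose like most of the members. COL1A2 (370.87 to 412.40 FPKM) and CDH5 (51.99 to 57.56 FPKM) were high, while DCN, LUM, PECAM1 and VWF were at most 0.46 FPKM. The summed level of these markers, most of it COL1A2, was 516.43, 562.80 and 533.08 FPKM with vehicle, 5 µM and 10 µM, and the part of these markers in the members' differences was not tested.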

How the data were processed

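RNA-seq libraries of H446 cells, 1 per group, were analysed from gene tables. Values were deposited by the authors as FPKM, per the file headers, with 2 decimals. Cuffdiff, Cufflinks, Bowtie2, BWA and Trim Galore and the genome build hg19 are named in the submitters' processing notes. Their versions and roles, the annotation, the strand and any scaling across libraries were not given in the sources used here. Such estimates can divide reads between overlapping or similar genes, which bears on SLC7A6, SLC1A5 and SLC6A9. The files held 16793 symbols, 2 of them listed more than once and summed, and none of these was a member. Groups and doses came from the treatment labels.

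Differences of log2(FPKM + 1) were taken for the 11512 genes whose mean reached 1 FPKM, with fixed limits of 2-fold and 1.5-fold in place of a test, which 1 library a group does not permit. The members and lists were chosen with earlier results of these data known. Named genes were all members, up to 5 list genes past 1.5-fold at 10 µM, fixed regulators, and the 3 genes nearest to the members with the largest and smallest difference. SLC7A7, SLC7A8, SLC7A10, SLC43A1, SLC1A1, MFSD12, SLC38A9, SFXN1, GLUL, CCDC24, the cell type markers and the genes of the closing observations were named after their values were seen, as were the light chain sums. Promoter windows (GRCh38.p14) came from RefSeq and transcripts from GENCODE 29, matched by symbol for 98.7% of genes. Alternatives were a pseudocount of 0.1 or 0.5, a filter at 5 FPKM or none, a limit of 4-fold, 3 scalings, removal of length and GC trends, and duplicated symbols left out. The difference and the fold calls, and no other step, were checked on simulated libraries. Known folds were set there in well-expressed genes only, so low genes were not covered. Python 3.11.15, numpy 2.4.6, pandas 2.3.3 and matplotlib 3.10.9 were used.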

Additional observations from a re-analysis of the deposited data

How the results depend on the processing

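Each member's 3 differences were recomputed under 9 alternatives. Of the 267 values obtained 257 moved by under 0.1 on the log2 scale, 10 by more, and 0 of those at or past 1.5-fold changed sign. The total includes values that could not move, because the setting leaves a member's own difference as it was. These were 30 with no filter, 27 with the filter at 5 FPKM and 30 with duplicated symbols left out. Of the 10 that moved, 7 of 30 values were with length and GC trends removed and 3 of 30 with a pseudocount of 0.1. The count of members at least 2-fold higher at 5 µM was 1, and it was 2 with a pseudocount of 0.1, 0 with a limit of 4-fold, and 0 with SLC7A6, SLC1A5 and SLC6A9 left out because they overlap other listed genes, an alternative chosen after seeing the data. At 10 µM the count of 4 was 0 with a limit of 4-fold, and 3 with the overlapping members left out. The members' median at 5 µM, 0.43, was 0.55 with the filter at 5 FPKM, which drops SLC7A11, and 0.32 with the overlapping members left out. With length and GC trends removed, SLC7A11 at 10 µM was at 0.14 in place of −0.04, and the cause was not tested. No paired analysis was possible because each group has 1 library. Depth is unknown, and its limit on the low genes was not measured.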

Other observations

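Besides the 10 members and SLC7A6OS, 187 genes whose symbol starts with SLC and a digit passed the filter. This list was formed after the data were seen and also holds those amino acid carriers named above that passed with such a symbol. Formed by symbol alone, it keeps genes named after a carrier, such as SLC9A3R1 and SLC4A1AP, so not every gene in it codes for a carrier. By log2(FPKM + 1) at 10 µM, 2 of the 187 passed 2-fold upward and 1 downward, where 1.31% and 0.643% of all genes did. At 1.5-fold 15 passed upward and 5 downward, where 6.04% and 3.44% of all genes did. These counts were near the shares of all genes, and the median difference of the list was 0.15. SLC25A35, a mitochondrial carrier gene, measured 3.69, 8.38 and 11.91 FPKM in the vehicle, 5 µM and 10 µM libraries, and SLC12A8 1.59, 3.12 and 4.35 FPKM. The gene past 2-fold downward was SLC13A4, a sulfate carrier gene, at 6.46, 2.70 and 2.34 FPKM. Short of 2-fold on that scale, but by plain FPKM ratio, SLC29A3, a nucleoside carrier of lysosomes, was 2.19-fold higher than with vehicle, SLC30A1, the zinc exporter, 1.93-fold, and SLC48A1, the heme carrier, 1.95-fold. On the lower side, SLC18A2, the vesicular monoamine carrier, was at 2.05, 1.15 and 0.86 FPKM, and SLC25A3, the mitochondrial phosphate carrier, at 254.00, 204.21 and 177.31 FPKM.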
